A study of Mus musculus with 6 samples.

Results

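Cycling oligodendrocyte precursor cells were chosen from single-nucleus RNA-sequencing (snRNA-seq) of 6 mouse brains by 5 conditions on raw UMIs, the counts of individual RNA molecules. Among barcodes with at least 300 genes and at most 1% mitochondrial UMIs, a nucleus was kept with at least 2 UMIs of Pdgfra and Cspg4 together and at least 3 of Tnr and Lhfpl3 together, which mark the precursors. It also had at most 1 UMI of the myelin genes Mog and Mag together and at most 1 of Slc6a13, a transporter gene of meningeal cells. A precursor was called cycling with at least 2 UMIs of Top2a and Mki67 together, and non-cycling with 0. The rule found 174 cycling precursors among 60724 nuclei, with 3550 non-cycling precursors beside them. A further 156 precursors with exactly 1 UMI of Top2a and Mki67 stood in neither class.

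The brains came from C57BL/6 S-56 neonates that received lysophosphatidic acid (LPA) or vehicle (0.01% bovine serum albumin) into the right lateral ventricle at P7 and were collected at P15, with 3 mice per group and 1 library per brain. LPA is a signaling lipid, and its injection is used in this study as a model of post-hemorrhagic hydrocephalus. Olfactory bulbs and cerebellum had been removed, and nuclei negative for the neuronal protein NeuN had been sorted before the 10x Genomics 3′ kit was applied. The nuclei were pooled over all remaining brain regions and hold nuclear RNA only, and both groups were injected, so the vehicle libraries are not from untouched brains.

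Oligodendrocyte precursors arise from neural progenitors and spread through the brain, where they divide under platelet-derived growth factor and later leave the cell cycle to become myelin-forming oligodendrocytes. During a division, the genes of DNA replication are transcribed first, largely under E2F factors, and the genes of mitosis follow under the DREAM and MuvB complexes with B-Myb and FoxM1. Top2a encodes the topoisomerase that untangles replicated DNA, and Mki67 encodes the Ki-67 protein that coats mitotic chromosomes.

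Promoters of many, not all, of these genes hold sequence elements known for these waves. The 6 RefSeq windows of build GRCm38.p6 below are shown because they belong to genes of the rule or of the lists used below, and each holds an element within the 100 bases before the transcription start. They run 5′ to 3′ on the strand of the gene, with capitals for the cell cycle homology region (CHR; TTTGAA or TTCGAA), an E2F-type element (TTTGGCGC, TTTCGCGC or TTTCCCGC) and the CCAAT box (CCAAT), each searched on both strands. Those of Top2a (chr11:99024190-99024289, minus strand), Mki67 (chr7:135716380-135716479, minus), Kif11 (chr19:37376282-37376381, plus) and Kif15 (chr9:122950981-122951080, plus) show CHR elements. Those of Mcm6 (chr1:128359706-128359805, minus) and Dtl (chr1:191575545-191575644, minus) show E2F-type elements.
Top2a: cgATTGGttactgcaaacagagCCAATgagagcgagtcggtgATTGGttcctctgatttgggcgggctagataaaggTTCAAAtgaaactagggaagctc
Mki67: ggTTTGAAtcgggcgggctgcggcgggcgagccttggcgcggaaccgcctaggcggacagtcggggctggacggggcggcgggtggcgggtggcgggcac
Kif11: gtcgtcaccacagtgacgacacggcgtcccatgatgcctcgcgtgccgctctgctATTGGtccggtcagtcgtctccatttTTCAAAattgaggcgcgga
Kif15: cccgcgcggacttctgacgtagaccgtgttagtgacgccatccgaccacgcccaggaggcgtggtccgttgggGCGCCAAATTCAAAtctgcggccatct
Mcm6: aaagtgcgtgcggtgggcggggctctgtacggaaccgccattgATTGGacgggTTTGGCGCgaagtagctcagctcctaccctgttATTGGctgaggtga
Dtl: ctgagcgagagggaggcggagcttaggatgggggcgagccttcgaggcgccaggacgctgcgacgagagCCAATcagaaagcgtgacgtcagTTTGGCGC
In the Kif15 window, an E2F-type element begins 27 bases and a CHR element 19 bases before the start, so that they adjoin without overlap. In the Top2a window, 3 CCAAT boxes begin 98, 78 and 58 bases before the start and the CHR element begins 23 bases before it.

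Over whole windows of 300 bases, 250 before and 50 after the start, 43 of the 59 matched genes of the mitosis list with Top2a and Mki67 added (72.9%) held a CHR element, against 19.4% of 27025 genes in the promoter table. An E2F-type element was in the windows of 16 of 39 matched genes of the DNA replication list (41.0%), against 1.91% of all genes. A CCAAT box was in 72.9% of the mitosis windows, in 69.2% of the DNA replication windows and in 37.9% of all. The matched genes of the precursor identity list held a CHR element in 2 of 29 windows and an E2F-type element in 1. The promoter table held 59 of the 72 genes of mitosis and 39 of the 51 of replication. These counts describe letters in the windows, and binding was not measured.

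The 174 cycling precursors came from every library. LPA libraries 1 to 3 gave 29, 41 and 28 cycling and 649, 828 and 608 non-cycling precursors, and vehicle libraries 1 to 3 gave 22, 32 and 22 cycling and 404, 618 and 443 non-cycling precursors. Values of cycling precursors below thus rest on 22 to 41 nuclei per library. Whole libraries held 48852970 to 65688644 UMIs. Between any pair of libraries 268 to 303 barcodes were shared, and 5 of the 174 members had a barcode found in more than 1 library. Summed over the cycling precursors, UMIs numbered 221739 to 244407 per LPA library and 111159 to 192944 per vehicle library.

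The members carried 488 UMIs of Top2a and 168 of Mki67. Both genes were detected in 86 nuclei, Top2a alone in 76 and Mki67 alone in 12. Exactly 2 UMIs, the least the rule allows, were found in 64 members, 3 to 9 in 103, and 10 or more in 7. For a background, the same threshold was applied to nuclei of myelin-forming cells, chosen by at least 3 UMIs of Mog and Mag with none of Pdgfra or Cspg4. Of these, 18 of 11535 (0.156%, exact 95% binomial interval 0.0925% to 0.247%) had 2 or more UMIs of Top2a and Mki67, at a median of 5814 UMIs per nucleus. With nuclei of 1 UMI in the denominator, as here, 4.11% to 4.94% of the precursors of a library were cycling, above this share in all 6 libraries. A single UMI of Top2a or Mki67 was found in 208 of the myelin nuclei, or 1.80%.

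Genes of the cycle that the rule did not use were detected in nearly every member. The DNA replication list (51 genes, Top2a and Mki67 aside) had a median of 22 UMIs per member, with none in 3 members. The mitosis list (70 genes) also had a median of 22 UMIs, with none in 1 member. Levels rose with the UMIs of the rule genes. In CPM (UMIs per 1000000 UMIs of the class) pooled over nuclei, the DNA replication list stood at 530 CPM in non-cycling precursors, 1718 with 1 UMI of Top2a and Mki67, 2804 with 2, 3722 with 3 to 9 and 4109 with 10 or more. The mitosis list stood at 390, 1222, 2439, 4059 and 7767 CPM over the same steps. Nuclei just outside the threshold therefore lay between the non-cycling and the cycling class in both lists. The list of committed precursors, genes such as Bcas1, Gpr17 and Enpp6 that are switched on as differentiation starts, ran the other way, from 4986 CPM at 0 UMIs and 4730 at 1 to 3628, 3617 and 3575 at the 3 higher steps.

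**Figure D1:**
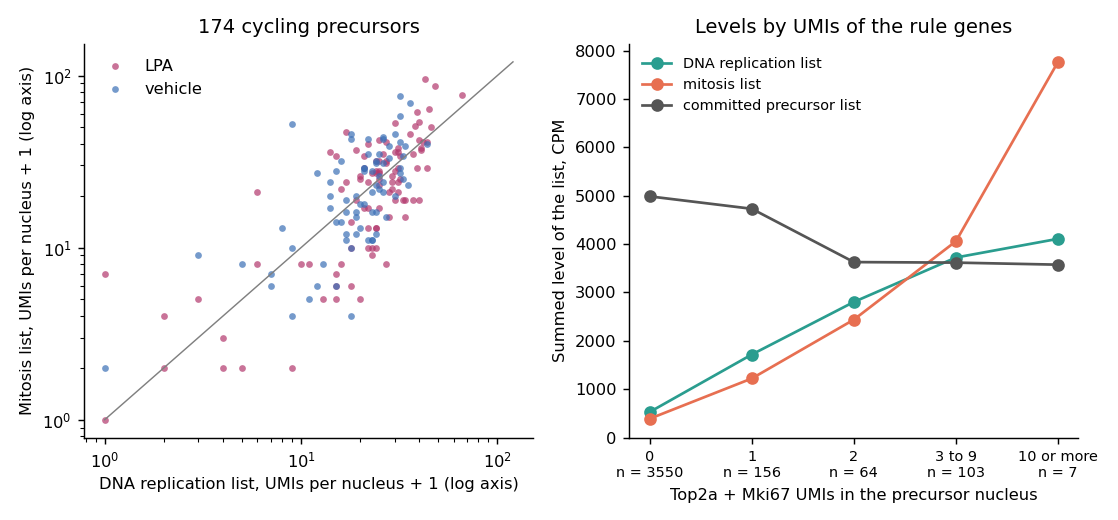
Left, UMIs of the DNA replication list (x axis, plus 1, log scale) and of the mitosis list (y axis, plus 1, log scale) in each of the 174 cycling precursors, with LPA nuclei in pink, vehicle nuclei in blue and a line of equality. Right, summed level of 3 lists in CPM pooled over precursors with 0, 1, 2, 3 to 9 and 10 or more UMIs of Top2a and Mki67, where the mitosis list goes from 390 to 7767 CPM while the committed precursor list goes from 4986 to 3575 CPM.

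The members formed a range between replication and mitosis. Replication UMIs outnumbered mitosis UMIs in 87 members, mitosis UMIs outnumbered replication UMIs in 82, and 5 were equal. The share of mitosis UMIs among both had a median of 49.4% and quartiles of 39.5% and 58.3%. Of the 174 members, 93 lay between 40% and 60%, 45 lay below and 35 above, and 1 had no UMI of either list. Whether the sides of this split are separate types was not tested. On the side with more replication UMIs, Top2a stood at 349 CPM and Mki67 at 97.0 CPM. On the side with more mitosis UMIs, Top2a stood at 541 CPM and Mki67 at 204 CPM. These are pooled over libraries, and the order was the other way for Top2a in LPA library 2 and vehicle library 1 and for Mki67 in vehicle library 3. Pooled in the same way, the committed precursor list stood at 3651 CPM on the replication side and 3646 CPM on the mitosis side, and the precursor identity list at 21885 and 23282 CPM. The identity order was the other way in LPA library 2 and vehicle library 1. The committed list was higher on the mitosis side in LPA libraries 1 and 2 and vehicle library 1, and on the replication side in the rest.

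Cycling and non-cycling precursors were next set side by side within each library. The rule chose the classes by this contrast, so its values are a description and no test was run. Differences are on the scale of log2(CPM + 1), averaged over the 6 libraries, with the SD over libraries. Of 4452 genes with a mean of at least 50 CPM in either class, 344 (7.73%) were higher in cycling precursors in 6 of 6 libraries and 267 (6.00%) were lower in 6 of 6. A mean difference of at least 1 with the same direction in 6 of 6 libraries was found for 136 genes upward (3.05%) and 5 genes downward (0.112%). The median over the 4452 genes was -0.05.

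With the rule genes left out, 10 of the 12 highest genes were on the mitosis list, which held 29 of the 4452 genes at 50 CPM or more. These 12 were chosen for their high difference, so their separation follows from the choice. Neil3, Knl1, Kif11 and Kif15 passed 50 CPM through the cycling class alone. Neil3, a DNA glycosylase gene that acts in replicating cells (chr8:53586867-53639065 in mm10), stood at 82.0, 94.1 and 108 CPM in cycling precursors of the LPA libraries and at 116, 67.4 and 117 CPM in those of the vehicle libraries. In non-cycling precursors it lay between 0 and 1.24 CPM, so the classes did not overlap, and its difference was 5.89 ± 0.63 (SD, n = 6). Knl1, which builds the kinetochore that attaches chromosomes to the spindle (chr2:119047119-119105501), reached 129, 151 and 113 CPM in LPA and 132, 135 and 189 CPM in vehicle libraries. It was at 1.01 to 3.46 CPM in non-cycling precursors, a difference of 5.49 ± 0.36. The long noncoding RNA Lockd followed with 5.42 ± 0.41.

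Among the spindle motors, Kif11, the motor that separates the spindle poles, lay at 94.9 to 163 CPM in cycling and 1.09 to 2.98 CPM in non-cycling precursors, a difference of 5.29 ± 0.53. Its partner Kif15 lay at 109 to 212 CPM in cycling and 1.18 to 5.45 CPM in non-cycling precursors, a difference of 5.17 ± 0.64. The other genes among the highest 12 were the kinase genes Melk (5.20) and Ttk (5.04), the scaffold gene Iqgap3 (5.10), the kinetochore gene Ndc80 (5.06), the cohesin acetyltransferase gene Esco2 (4.95), the phosphatase partner gene Cdca2 (4.81) and the midbody motor gene Kif23 (4.77). Neil3 and Lockd are not on the mitosis list.

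**Figure D2:**
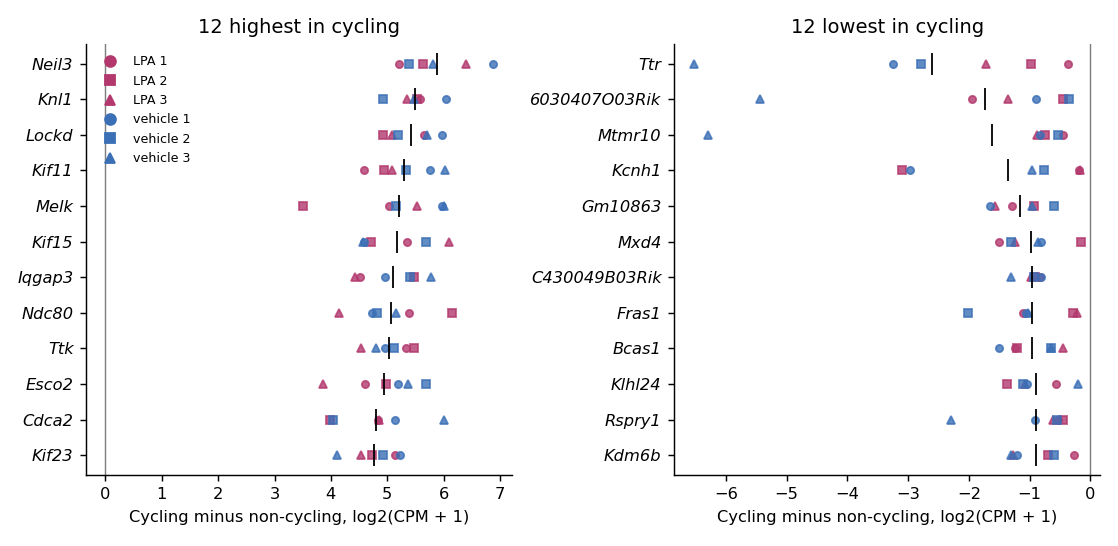
Difference between cycling and non-cycling precursors on the log2(CPM + 1) scale in each of the 6 libraries (symbols) and their mean (black bar), for the 12 genes highest and the 12 genes lowest in cycling precursors, with the genes of the rule left out. The 12 highest have means from 4.77 to 5.89, and the scatter among the lowest is wide where a library has no UMI of the gene.

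Of all 70 genes of the mitosis list, 57 were higher in 6 of 6 libraries and none was lower in 6 of 6. The 29 at 50 CPM or more, many of which reach that level in the cycling class alone, were among the 57 and had a median difference of 4.33. The most abundant were Diaph3, a formin gene of the actin cytoskeleton (401 ± 79.0 CPM in cycling and 58.1 ± 4.46 in non-cycling precursors, SD, n = 6), and Hjurp, the chaperone gene of the centromeric histone (238 ± 80.1 and 72.7 ± 6.47 CPM). The marker genes Aspm and Cenpf, under 50 CPM, were also higher in 6 of 6 libraries, at 43.8 and 35.8 CPM against 1.60 and 3.88 CPM. Cenpe was higher in 5 of 6, with no UMI among the cycling precursors of vehicle library 1.

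Of all 51 genes of the DNA replication list, 45 were higher in 6 of 6 libraries and none was lower in 6 of 6. The 25 at 50 CPM or more, some of them again through the cycling class alone, were among the 45 and had a median difference of 2.76. Pola1, the catalytic subunit of the polymerase that starts new DNA strands, stood at 268, 487 and 334 CPM in LPA and 256, 399 and 486 CPM in vehicle libraries, against 58.8 to 86.3 CPM in non-cycling precursors. Atad2, a chromatin regulator of E2F targets, stood at 262 ± 76.3 CPM against 16.7 ± 2.55 CPM. Brip1, a repair helicase gene, stood at 142 ± 32.7 against 5.90 ± 1.10 CPM. The helicase subunit gene Mcm6 stood at 73.3 ± 19.5 against 9.85 ± 2.29 CPM, and Dtl, whose product marks replication proteins for destruction, at 99.4 ± 15.3 against 5.48 ± 1.43 CPM.

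Genes that act before replication were also measured. Of 18 genes of the list of G1 cyclins and their partners, 6 were higher in 6 of 6 libraries. Of the 6 listed genes at 50 CPM or more, 4 were higher in 6 of 6 libraries, led by Rbl1, a member of the retinoblastoma family (81.6 ± 18.1 against 14.6 ± 1.82 CPM), and the transcription factor gene E2f3 (181 ± 32.3 against 84.2 ± 10.6 CPM). Over all genes at that level the share was 7.73%. Rbl1 reached 50 CPM through the cycling class alone, so the count is a description and no conclusion is drawn from it. Ccnd1, the growth-factor-induced cyclin D1 gene, stood at 48.3 ± 21.0 against 42.3 CPM and was higher in 3 of 6 libraries. The cell cycle inhibitor genes were sparse, with 3 UMIs of Cdkn1a and 17 of Cdkn1b in all cycling precursors, and neither of the 2 listed inhibitors or p53 targets at 50 CPM (Mdm2 and Sesn1) was higher or lower in 6 of 6. Anln, placed on the myelin list because oligodendrocytes express it, encodes a scaffold of the cleavage furrow. It stood at 65.9 ± 30.3 CPM in cycling and 6.41 ± 2.43 CPM in non-cycling precursors, higher in 6 of 6.

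Precursor identity genes were present in both classes. Pdgfra, the receptor of platelet-derived growth factor, stood at 678 ± 132 CPM in cycling and 715 ± 59.3 CPM in non-cycling precursors, and Cspg4, the NG2 proteoglycan gene, at 256 ± 69.4 and 293 ± 34.4 CPM. Both genes belong to the rule. Of 31 other identity genes at 50 CPM or more, none was higher and 4 were lower in 6 of 6 libraries, with a median difference of -0.18 (-0.29 over LPA and -0.07 over vehicle libraries). Over all genes at that level, 7.73% were higher and 6.00% lower in 6 of 6. The summed list was lower in cycling precursors mainly in LPA libraries 1 (20630 against 24096 CPM) and 3 (19329 against 25691 CPM). The 4 were the EGF-repeat gene Megf11 (-0.44), the calcium channel subunit gene Cacng4 (-0.37), the sulfatase gene Sulf2 (-0.27) and C1ql1 (-0.62). The lineage factors Olig1, Olig2, Sox10 and Sox6 lay within 0.18 of 0 on either side. Opcml, the most abundant of the list, stood at 4284 ± 287 against 4543 CPM.

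Genes of the first step of differentiation were lower. Of 14 committed precursor genes at 50 CPM or more, 8 were lower in 6 of 6 libraries and none was higher, with a median of -0.59. The share lower in 6 of 6 over all genes at that level was 6.00%. Of all 22 listed, 10 were lower in 6 of 6. Bcas1, a marker of newly forming oligodendrocytes (chr2:170346991-170427845), stood at 229, 266 and 446 CPM in LPA and 225, 301 and 297 CPM in vehicle libraries, against 467 to 643 CPM in non-cycling precursors. The classes did not overlap, and the difference was -0.95 ± 0.42. Gpr17, the receptor gene that marks the committed stage, stood at 112 ± 21.9 against 183 ± 31.7 CPM, the tyrosine kinase gene Fyn at 340 ± 53.2 against 514 ± 61.0 CPM, and the deacetylase gene Sirt2 at 88.5 ± 31.3 against 155 ± 20.8 CPM. Enpp6, a choline phosphodiesterase gene of new oligodendrocytes, was lower in 5 of 6 libraries at 19.7 against 37.5 CPM. Of 9 genes of the myelin list at 50 CPM or more, 2 were lower and 1 was higher in 6 of 6. Mbp, which encodes myelin basic protein, was lower in 6 of 6 (-0.39).

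**Figure D3:**
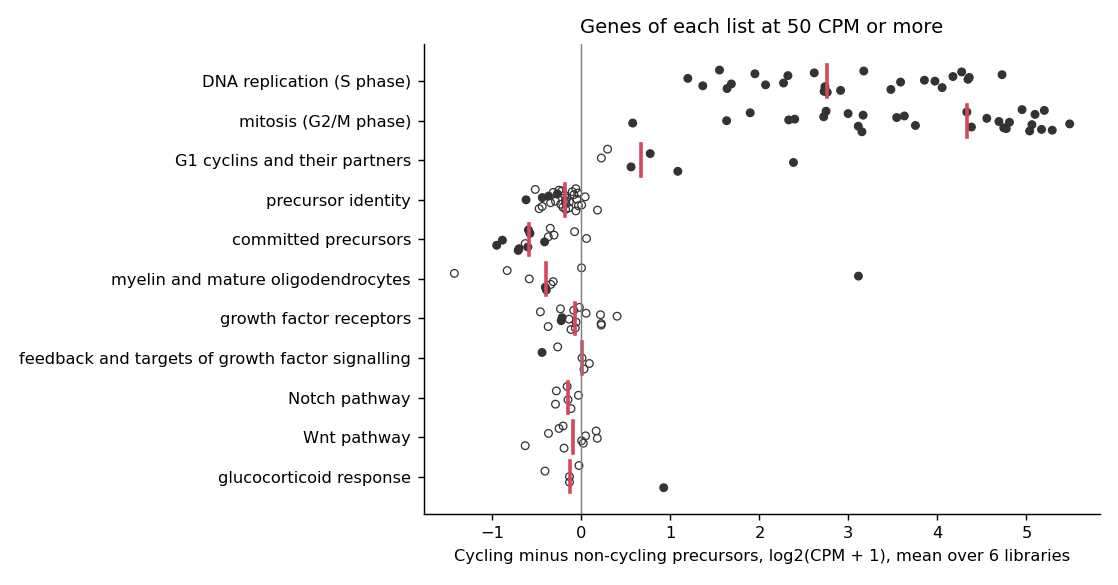
Each point is a gene with a mean of at least 50 CPM in either class, placed by its mean difference between cycling and non-cycling precursors on the log2(CPM + 1) scale over 6 libraries, in rows by list. Filled points had the same direction in 6 of 6 libraries, and red bars are list medians, which stand at 4.33 for mitosis, 2.76 for DNA replication, -0.18 for precursor identity and -0.59 for committed precursors.

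The remaining pathways showed few shared directions. Of all genes at 50 CPM or more, 7.73% were higher and 6.00% lower in 6 of 6 libraries. Of 16 growth factor receptor genes, Ntrk3 (-0.22) and Insr (-0.23) were lower in 6 of 6 libraries, while Erbb4, the most abundant, stood at 2978 ± 822 against 2482 CPM and was higher in 4. Among 5 targets of growth factor signaling, the ETS factor gene Etv4 was lower in 6 of 6 (-0.44). None of 6 Notch genes and none of 10 Wnt genes had 1 direction in all libraries. Of 5 genes of the glucocorticoid list at 50 CPM or more, 1 was higher and none was lower in 6 of 6, with a median of -0.13. The 1 was Fkbp5, a co-chaperone gene induced by glucocorticoids, at 158 ± 54.0 against 82.2 ± 26.1 CPM. Of the immune and interferon list, Stat3 alone reached 50 CPM, and it was lower in 6 of 6 (-0.56). Enpp2, which encodes the enzyme autotaxin that makes LPA, stood at 216, 180 and 149 CPM in LPA and 155, 212 and 144 CPM in vehicle libraries, against 304 to 320 CPM in non-cycling precursors, a difference of -0.84 ± 0.27. The LPA receptor genes were near the detection limit, with 19 UMIs of Lpar1 and 6 each of Lpar4 and Lpar6 in all cycling precursors, 3 of Lpar2, 2 of Lpar3 and none of Lpar5.

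The lowest 12 genes in cycling precursors were mostly of low level. Ttr, the transthyretin gene of the choroid plexus, led with -2.61 ± 2.20, at 73.4, 32.7 and 22.5 CPM in LPA and 7.76, 10.4 and 0 CPM in vehicle libraries against 65.7 to 95 CPM in non-cycling precursors. Its difference was -1.17 against nuclei matched on UMIs and -1.51 without Scrublet calls. Of the genes with a narrower spread, Mxd4, a repressor of Myc targets, stood at 32.3 ± 10.9 against 62.2 ± 6.07 CPM (-0.98 ± 0.48), and the noncoding RNA C430049B03Rik had -0.96 ± 0.18. The other lowest genes were 6030407O03Rik, Mtmr10, Kcnh1, Gm10863, Fras1, Bcas1, Klhl24, Rspry1 and Kdm6b, from -1.74 to -0.89. Kdm6b encodes a histone H3 lysine 27 demethylase, and Kcnh1 a voltage-gated potassium channel.

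Depth moved with the classes. Cycling precursors had medians of 5977, 4570 and 6203 UMIs in LPA and 4827, 4183 and 4602 UMIs in vehicle libraries, above the non-cycling medians of 4346, 3834 and 4021 and of 3408, 3631 and 3084. When each cycling nucleus was set against the non-cycling nucleus of nearest depth in its library, the median of the committed list was -0.56. Of single genes, 213 of the 344 higher and 73 of the 267 lower had the same direction in 6 of 6 libraries after matching, which also cut the non-cycling side to 22 to 41 nuclei per library, so that depth and number of nuclei cannot be told apart. The median of growth factor receptors went from -0.08 to 0.01 and that of Notch genes from -0.16 to 0.03. The doublet caller Scrublet marked 59 of the 174 members (33.9%), and 28.9% of the 3550 non-cycling precursors. The share was higher in cycling precursors in LPA libraries 1 (48.3% against 31.7%) and 3 (46.4% against 28.9%) and vehicle library 1 (27.3% against 24.0%), and lower in the other 3. Marked members had a median of 8541 UMIs and 4428 CPM of the astrocyte list, against 3995 UMIs and 1310 CPM in the others. The microglia list stood at 547 against 101 CPM and the list of ependyma and choroid plexus at 177 against 43.7 CPM. The mature oligodendrocyte list was lower in marked members, at 149 against 321 CPM. The rule allowed at most 1 UMI of Mog and Mag at any depth, so no conclusion is drawn from this last value. The part of the marked members in the differences above was not tested beyond leaving them out. Without them the medians were -0.66 for committed precursors and -0.12 over all genes, and 235 of the 344 higher and 113 of the 267 lower genes kept 1 direction in 6 of 6 libraries.

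The next question was whether the precursors cycled as often after LPA as after vehicle, which the rule did not use. With the precursors of 1 UMI left out, cycling nuclei were 4.28%, 4.72% and 4.40% of precursors in LPA libraries 1 to 3 and 5.16%, 4.92% and 4.73% in vehicle libraries 1 to 3. The groups lay side by side without overlap, with a gap from 4.72% to 4.73%, and the exact 95% binomial interval of each library was far wider, for example 3.41% to 6.35% in LPA library 2. The means were 4.47% ± 0.227 and 4.94% ± 0.217 (SD, n = 3 each), with p = 0.1 in a two-sided exact permutation test, the smallest that 3 against 3 libraries can give. The groups overlapped under 7 of the alternatives. They did so after nuclei were thinned to 4000 UMIs (4.26% and 5.76%) or 2000 UMIs (1.90% and 2.52%), with an upper limit on UMIs (4.29% and 4.71%), with shared barcodes left out (4.40% and 4.89%), with nuclei holding markers of other cells left out (3.62% and 4.58%), after Scrublet calls were left out (3.83% and 4.92%) and at a threshold of 3 UMIs (2.90% and 3.21%). No permutation test of 3 against 3 libraries can pass 0.05, so the direction, lower on average after LPA in each of these settings, is given as a description. A nucleus held markers of other cells if 1 such list, mature oligodendrocytes aside, had at least 5 UMIs and over 0.5% of its UMIs. Cycling precursors so marked numbered 12, 21 and 12 in LPA libraries 1 to 3 and 7, 9 and 12 in vehicle libraries 1 to 3. The neuron list, mostly Rbfox1, summed to 4524 CPM in all cycling and 4057 CPM in all non-cycling precursors, not far below this limit. The setting was therefore not shown to single out nuclei mixed with other cells.

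Cycling precursors made up more of all nuclei in the LPA libraries. They were 0.340%, 0.399% and 0.308% of the nuclei kept in LPA libraries and 0.272%, 0.258% and 0.179% in vehicle libraries, which did not overlap (0.349% ± 0.0465 and 0.236% ± 0.0502, exact permutation p = 0.1). All precursors, those with 1 UMI of Top2a and Mki67 included, were also a larger share of nuclei, at 8.12% ± 0.794 after LPA and 4.96% ± 0.908 after vehicle, again without overlap (exact permutation p = 0.1). The non-cycling precursors were deeper in every LPA library than in any vehicle library (4067 ± 259 and 3374 ± 275 median UMIs). After thinning to 4000 UMIs the groups still did not overlap, at 0.264% and 0.176%, but at 2000 UMIs (0.118% and 0.0931%) and without Scrublet calls (0.258% and 0.206%, exact permutation p = 0.6) they did. These are shares of NeuN-negative nuclei that were sorted, so more precursors and fewer other nuclei cannot be told apart.

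**Figure D4:**
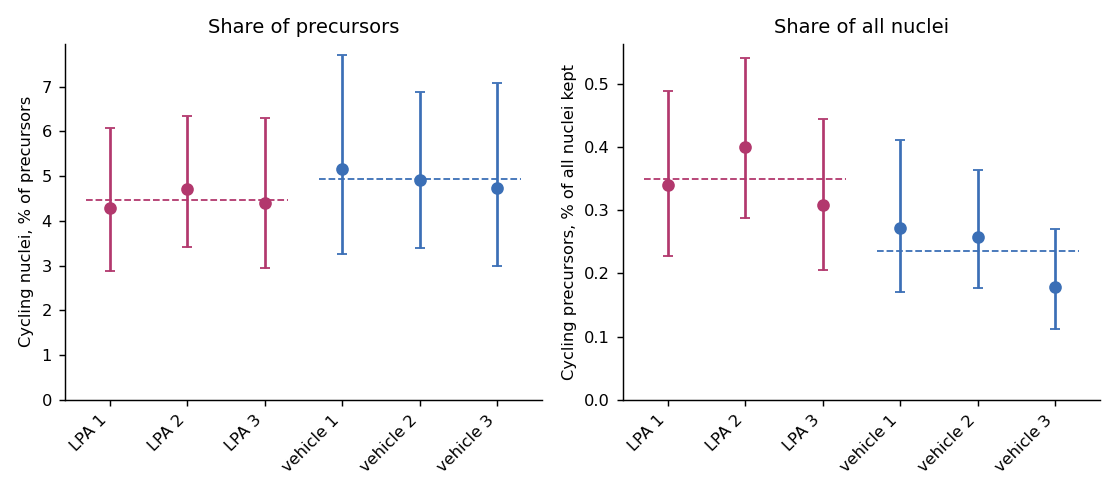
Cycling nuclei as percent of cycling and non-cycling precursors (left) and as percent of all nuclei kept (right) in each library, with exact 95% binomial intervals, which cover counting error only, and dashed lines at the group means. The left means are 4.47% after LPA and 4.94% after vehicle, and the right means are 0.349% and 0.236%.

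Other dividing nuclei were present too. All nuclei with at least 2 UMIs of Top2a and Mki67 were 0.962%, 1.16% and 0.989% of the LPA libraries and 0.654%, 0.596% and 0.593% of the vehicle libraries, without overlap (exact permutation p = 0.1). Cycling precursors were 35.4%, 34.5% and 31.1% of them after LPA and 41.5%, 43.2% and 30.1% after vehicle, and these groups overlapped (exact permutation p = 0.4). At a threshold of 3 UMIs they did not overlap, at 33.7% and 46.2% (exact permutation p = 0.1), nor did they without vehicle library 3. With nuclei holding markers of other cells left out, the difference turned from -4.65 to 1.05 percentage points. This setting also cut the denominator, from between 53 and 119 dividing nuclei per library to between 30 and 54. These values are thus shares of different sets of nuclei.

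The position of the members within the cycle was compared as well. Mitosis UMIs were 53%, 50.6% and 48.2% of mitosis and replication UMIs together in LPA libraries and 55.7%, 54.1% and 50.8% in vehicle libraries. The groups overlapped, and the difference of -2.91 percentage points had p = 0.2 in the exact permutation test. It was -1.46 without Scrublet calls and -0.03 without nuclei holding markers of other cells.

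No gene passed the test between LPA and vehicle in cycling precursors. UMIs were summed per library and tested with the edgeR quasi-likelihood test, and a gene was called where its Benjamini-Hochberg adjusted p lay under 0.05 and its log2 fold-change reached 0.25 in either direction. Of 4407 genes tested, 0 were called (0.0%), and DESeq2 also called 0. Without the filter on low counts, 23 of 17719 genes were called, Wdr17, Col23a1, Prdm16, Car10 and mt-Co3 among them. At an unadjusted p under 0.05 there were 229 genes in edgeR, or 5.20% of those tested.

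The genes of lowest p are given as values, none of them called, and being chosen by p their groups were bound to lie apart. Wdr17, a WD-repeat gene (chr8:54629055-54887184), stood at 509, 454 and 442 CPM after LPA and at 256, 181 and 216 CPM after vehicle, without overlap (log2 fold-change 1.10 ± 0.21 SE, edgeR adjusted p = 0.232). In non-cycling precursors the same gene stood at 505, 377 and 375 and at 307, 487 and 370 CPM, which overlapped. Col23a1, a collagen gene, stood at 56.1, 85.9 and 67.6 CPM after LPA and 23.3, 0 and 9.0 CPM after vehicle, on 53 UMIs in all (2.81 ± 0.65, adjusted p = 0.418), and its fold-change was 4.14 without vehicle library 1 and 2.02 without vehicle library 2. Prdm16, a chromatin regulator of neural progenitors, stood at 94.9, 135 and 67.6 against 46.6, 5.18 and 9.0 CPM (2.36 ± 0.55, adjusted p = 0.418), with 3.77 and 1.75 without the same libraries.

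Car10, which encodes a carbonic anhydrase-related protein that binds neurexins (chr11:93098028-93601749), stood at 293, 225 and 262 CPM after LPA and 551, 456 and 531 CPM after vehicle. The groups did not overlap (-0.99 ± 0.20, edgeR adjusted p = 0.232), while in non-cycling precursors they lay at 339 to 357 and 339 to 399 CPM. With an upper limit on UMIs per nucleus the fold-change of Car10 was -0.53. The mitochondrial transcripts mt-Co3 (-1.15 ± 0.27) and mt-Nd4 (-1.93 ± 0.49) had the next lowest p among lower genes. These come from mitochondria outside the nucleus, and mitochondrial UMIs averaged 0.0556%, 0.0418% and 0.0517% of a cycling nucleus after LPA and 0.143%, 0.0834% and 0.110% after vehicle. In non-cycling precursors mt-Co3 passed the test (-1.41, edgeR adjusted p = 0.0054). How far cytoplasmic carry-over moves other genes was not tested.

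**Figure D5:**
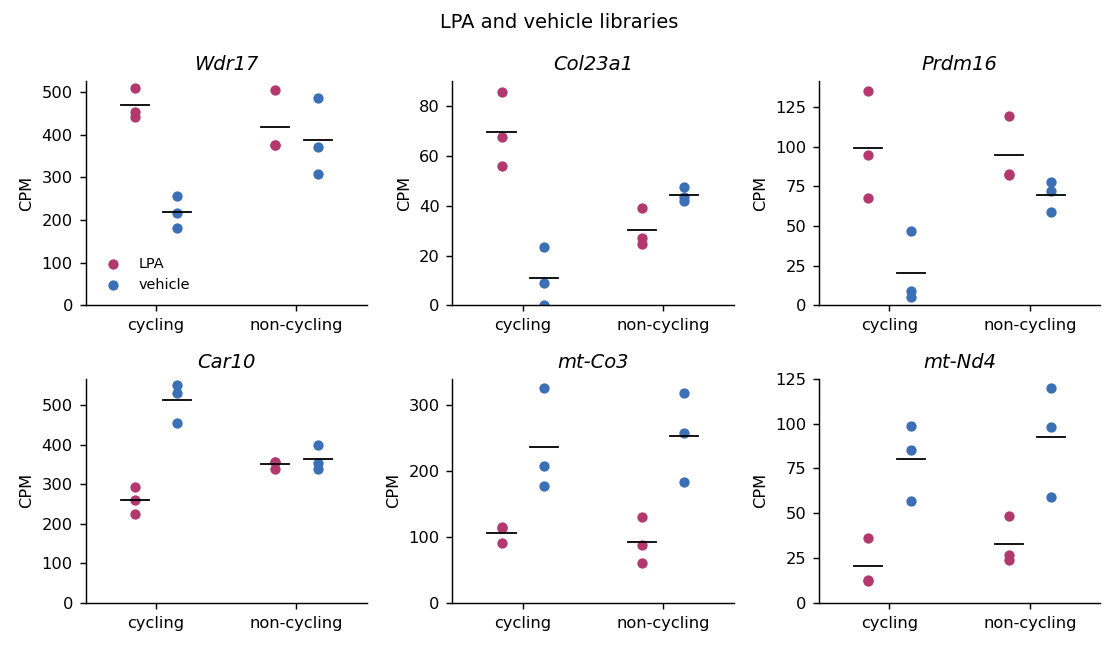
CPM per library of the 3 higher and 3 lower genes of lowest p between LPA (pink) and vehicle (blue) in cycling precursors, with the same genes in non-cycling precursors at the right of each panel and black bars at group means. The 6 genes were chosen for their low p, so that their separation in cycling precursors follows from the choice, and none was called.

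No cell cycle gene was called between the groups. Of 28 replication genes tested, 9 were higher and 19 lower after LPA, with a median log2 fold-change of -0.10, and of 33 mitosis genes 7 were higher and 26 lower, with a median of -0.23. The median over all 4407 genes was -0.01. Top2a stood at 423, 409 and 320 CPM after LPA and 489, 498 and 540 CPM after vehicle, and Mki67 at 86.3, 196 and 113 against 241, 119 and 189 CPM. The rule cut both genes at a minimum number of UMIs, so these levels are a description. Median depth overlapped between groups in cycling precursors and did not in non-cycling precursors.

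Identity and differentiation genes were likewise not called. Of 29 identity genes tested, 7 were higher and 22 lower with a median of -0.15, and of 14 committed precursor genes 9 were higher and 5 lower with a median of 0.11. The committed precursor list summed to 3703, 3703 and 4104 CPM after LPA and 3663, 3146 and 3059 CPM after vehicle, without overlap and with no test run. Pdgfra stood at 652, 798 and 460 against 745, 612 and 801 CPM, overlapping. All 5 tested genes of the glucocorticoid list were lower after LPA, with a median of -0.60 and 0 called. Among them, Fkbp5 stood at 125, 151 and 94.7 against 248, 140 and 189 CPM (-0.62 ± 0.27, edgeR adjusted p = 0.916) and Zbtb16, a zinc finger repressor gene, at 77.7, 102 and 45.1 against 140, 98.5 and 180 CPM (-0.84 ± 0.34, adjusted p = 0.916). In non-cycling precursors, where more UMIs were at hand, Fkbp5 (-0.66, adjusted p = 0.047) and Zbtb16 (-0.68, adjusted p = 0.024) were both called lower. They were the 2 called of 16 genes of the list tested there, whose median was -0.24, beside 0.311% of all genes called lower.

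Non-cycling precursors held 62 called genes of 13828 tested (0.448%), 19 higher (0.137%) and 43 lower (0.311%) after LPA, and 1190 (8.61%) had an unadjusted p under 0.05. Gfap, the intermediate filament gene of astrocytes, rose by 1.35 on the log2 scale (edgeR adjusted p = 0.0031). Markers of other cells were called in the same test. They were 1 of 15 tested astrocyte genes (Gfap itself), 2 of 16 microglia genes and 2 of 5 ependyma and choroid plexus genes, all higher, and 3 of 9 mature oligodendrocyte genes and 3 of 11 vascular and meningeal genes, all lower. Their part in the 62 calls was not tested, and without Scrublet calls 4 genes were called. C4b, a complement gene, had 14 UMIs in cycling precursors, and Tsc22d3, a glucocorticoid-induced gene, had 29. Gfap had only 21 UMIs there and was not tested, standing at 43.2, 24.5 and 9.02 CPM after LPA and 7.76, 10.4 and 0 CPM after vehicle. The effect of LPA was then compared between cycling and non-cycling precursors of the same library by an interaction term. Of 4407 genes, 0 were called (0.0%), with 200 (4.54%) at an unadjusted p under 0.05, and DESeq2 called 0. The lowest p were those of Col23a1 (3.46, edgeR adjusted p = 0.194), Wdr17 (1.02) and Zfp710 (1.59) among positive terms and of Car10 (-0.94, adjusted p = 0.239, and -0.38 with an upper limit on UMIs), Kcnmb2 (-1.82) and Lrrn1 (-1.54) among negative ones. A gene called in one class and not in the other is therefore not shown to respond differently.

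Of 7 lists of markers of other cells, 2 did not overlap between the groups in these members, with no test run. The committed precursor list did not overlap either. Separation of 3 against 3 libraries by itself has p = 0.1 in a two-sided exact permutation test, so these separations are a description. The microglia list summed to 811, 262 and 374 CPM after LPA and 85.4, 187 and 18 CPM after vehicle in cycling precursors, where 15 of 16 genes had a UMI and F13a1 was at 0. The list of ependyma and choroid plexus summed to 177, 233 and 104 against 23.3, 25.9 and 9.0 CPM, with 9 of 10 genes detected, Ccno at 0 and Ttr the most abundant at 29.2 CPM. These are the 2 lists of other cells that did not overlap. Over all cycling precursors the microglia list held 384 UMIs and that of ependyma and choroid plexus 130. The vehicle libraries summed to only 111159 to 192944 UMIs of all genes, so their lowest values rest on few UMIs. The vascular and meningeal list summed to 380, 85.9 and 298 against 303, 161 and 207 CPM, and the astrocyte list to 2784, 3731 and 2981 against 4176, 1944 and 2132 CPM, and both overlapped. The lists of neurons, of Dlx interneuron precursors and of mature oligodendrocytes overlapped as well. In non-cycling precursors other lists stood apart. The vascular and meningeal list lay at 204 to 247 CPM after LPA and 306 to 398 CPM after vehicle. The mature oligodendrocyte list lay at 155 to 196 and 243 to 288 CPM, while the microglia list and that of ependyma and choroid plexus overlapped. The part of other cells in the values above was not tested.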

How the data were processed

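Deposited UMI counts per gene and barcode were analysed for 6 libraries, 3 LPA and 3 vehicle. The authors made these counts from 10x 3′ v3 reads, and the submitters' processing notes name Cell Ranger 4.0.0 and mm10. Nuclei were kept with at least 300 genes and at most 1% mitochondrial UMIs. Members and gene lists were chosen with earlier results of these data known. Doublets were marked with Scrublet (scanpy 1.11.5, expected rate 0.08) and kept in the main results.

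Counts were summed per library and class and tested with edgeR 4.0.16 (quasi-likelihood, TMM scaling, low-count filter, R 4.3.3), with Benjamini-Hochberg adjustment, and DESeq2 1.42.0 was an alternative. The edgeR step in cycling precursors was tested on simulated data. It recovered 75 of 200 genes changed by 1 on the log2 scale (37.5%) and 173 of 200 changed by 2 (86.5%), with 8 false calls each. Shares were compared by two-sided exact permutation tests (scipy 1.17.1) over libraries. Binomial intervals are exact (Clopper-Pearson) at 95% and cover counting error only. The edgeR p-values set the difference between groups against the spread between libraries, with 3 mice per group. Those of the interaction use the spread left after a term for each library. The permutation p-values rank the observed difference among the 20 assignments of libraries to groups. Thinning drew 100 random subsets, leaving out shallower nuclei.

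Genes named were those of the rule, the 3 of lowest p in each direction where fewer than 3 were called, the 12 highest and 12 lowest between classes with 1 direction in 6 of 6 libraries and at least 50 CPM, abundant or called list members, the LPA receptors, Gfap, C4b, Fkbp5 and Tsc22d3. Other list members were named after their values were seen. Some list members are not reported here.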

Additional observations from a re-analysis of the deposited data

How the results depend on the processing

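The difference between groups in the share of cycling precursors among nuclei with 2 UMIs of Top2a and Mki67 changed its sign when nuclei with markers of other cells were left out (-4.65 to 1.05 percentage points). That setting also removed nuclei from the denominator (119 to 54 in LPA library 2), so it compares shares of different sets. In cycling precursors, the 0 genes called between LPA and vehicle became 23 without the filter on low counts (14 higher, 9 lower) and 0 to 1 when a library was left out, the 1 being Bnc2 without vehicle replicate 3. The 62 called in non-cycling precursors became 262 without the filter, 4 without Scrublet calls and 13 to 102 when a library was left out, with 13 without vehicle replicate 3, 22 without LPA replicate 2, 34 without LPA replicate 3 and 102 without vehicle replicate 1. The interaction gave 8 without the filter and 0 to 1 when a library was left out, the 1 being Htr2c without LPA replicate 2 and Bnc2 without vehicle replicate 3. The cause was not tested. Genes lower in cycling precursors in 6 of 6 libraries went from 267 to 142 against non-cycling nuclei matched on UMIs, with 73 shared. Leaving out a library moved the difference in the share of precursors that cycled from -0.600 to -0.361 percentage points, in the share of all nuclei from 0.0844 to 0.134 and in the mitosis share from -4.27 to -1.70. Deviations of same-numbered libraries had a Pearson r across genes of 0.02, -0.01 and -0.03 in cycling and 0.04, 0.08 and -0.03 in non-cycling precursors. Libraries of unlike numbers lay between -0.14 and 0.10 in non-cycling precursors. These values do not settle whether the numbers pair the libraries, and the main tests did not pair them. The replicate block gave 0 calls in cycling and 44 in non-cycling precursors. Thinning to 2000 UMIs and leaving out shared barcodes were chosen after seeing the data. The test in cycling precursors rests on 22 to 41 nuclei per library.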

Other observations

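The sexes of the mice were not balanced. Among cycling precursors, Xist, the noncoding RNA of the inactive X chromosome, stood at 4.32, 2770 and 2620 CPM in LPA libraries 1 to 3 and at 0, 2747 and 0 CPM in vehicle libraries 1 to 3. The Y-linked gene Uty stood at 155, 0 and 0 CPM and at 171, 0 and 117 CPM. Transcripts of the Y chromosome were thus found in LPA library 1 and in vehicle libraries 1 and 3, and the part of sex in the comparisons was not tested.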
